A study of Mus musculus with 4 samples.

Results

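The genes described here encode the enzymes, transporters and regulators by which a cell takes up glucose, breaks it down by glycolysis, diverts it into the pentose phosphate pathway, or stores it as glycogen. They were chosen by function, with earlier results of these data known, as a list of 38 symbols. Of these, 34 were measured on the array by a probe set that names 1 gene only, out of 18193 genes measured in that way. A probe set is the group of short probes that reads 1 transcript or a few, and a gene with several was represented by the one with the highest mean over the arrays. Gpi1, Eno1 and G6pdx had no such probe set in the annotation used, and the 3 probe sets that carry the symbol Gapdh also carry others, so these 4 genes were not analysed here.

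The samples were CD11b+ splenocytes of the mouse, that is, spleen cells that carry integrin alpha M, the surface protein of neutrophils, monocytes and macrophages and of some dendritic, NK and B cells. There were 2 pools from mice under repeated social threat, called HighThreat in the labels, and 2 pools from control mice, called LowThreat. Each pool combined the RNA of 5 mice and went onto 1 Affymetrix MOE430 2.0 array, so that the spread between the pools of a group is not the spread between mice. Strain, sex, age, the length of the exposure and the method of cell isolation are not given in the sources used here.

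Glycolysis splits glucose into pyruvate in the cytosol and yields ATP without oxygen, and lactate dehydrogenase turns pyruvate into lactate when it is not sent to the mitochondria. The pentose phosphate pathway branches off after the first step and supplies NADPH, which the phagocyte oxidase and antioxidant enzymes use, and ribose for nucleotides. Neutrophils are known for a strong reliance on glycolysis and for their own glycogen store. Hypoxia-inducible factor 1, whose oxygen-regulated subunit is encoded by Hif1a, is known to switch on many glycolytic genes.

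Most of the measured genes that differed were higher under social threat. In limma with Benjamini-Hochberg adjustment over 45037 probe sets, 18 of the 34 genes rose, 2 fell and 14 were not called, at an adjusted p under 0.05. Over all 18193 genes, 21.1% were called, with 9.4% higher and 11.7% lower. All 34 genes had a level above the median level of genes, and of the 9095 genes above that median 37.6% were called, with 16.6% higher and 21.1% lower. By size, 13 of the 34 genes were called and differed by at least 1.5-fold, 11 of them higher and 2 lower. Of all genes 7.51% did so, 3.9% higher and 3.62% lower, and of the genes above the median level 12.6%, 6.44% higher and 6.18% lower. The median log2 difference, social threat minus control, was 0.40 over the 34 genes and -0.02 over all genes. The pools of the groups did not overlap for 27 of the 34 genes, 22 higher and 5 lower under social threat. The same held for 58.2% of all genes (26.1% higher, 32.1% lower) and for 75.4% of the genes above the median level (32.5% higher, 42.9% lower). In bulk RNA of this kind, fewer cells of a type and less RNA per cell cannot be told apart.

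**Figure D1:**
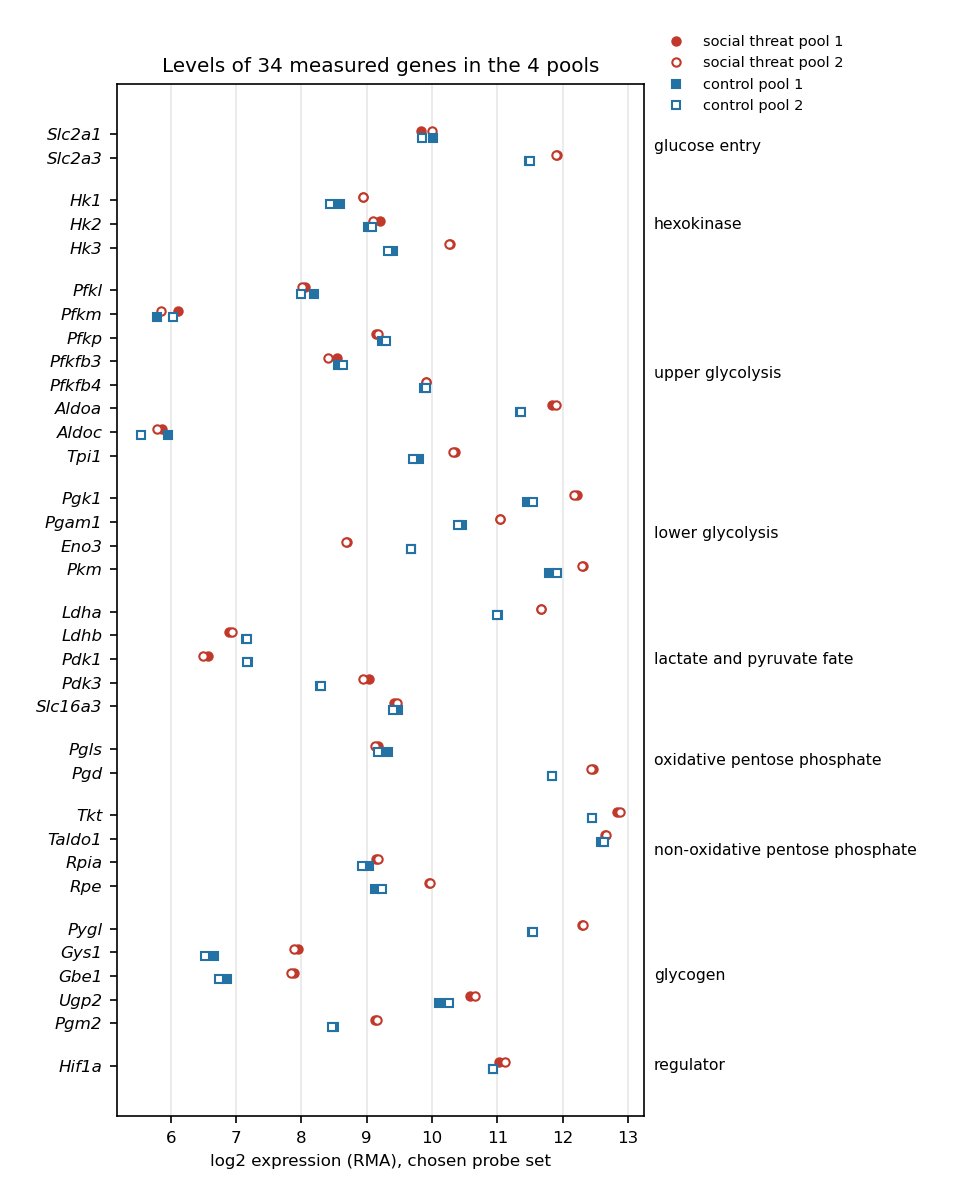
Log2 expression (x axis, RMA values of the chosen probe set) of each of the 34 measured genes (y axis, grouped by role) in the 2 social threat pools (red circles) and the 2 control pools (blue squares), with pool 1 filled and pool 2 open. The red and blue symbols stand apart for all 5 glycogen genes, while those of Slc2a1, Pfkl, Pfkm, Pfkfb4, Aldoc, Slc16a3 and Pgls overlap.

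Within the list, glycogen was the group in which every measured gene was called higher, 5 of 5, with a median log2 difference of 0.77. The group includes Pgm2, whose human counterpart acts mainly on pentose phosphates. A rise of this kind was not seen over the 22 measured glycogen genes outside the list. Of those, 3 were called higher and 3 lower, with a median of -0.02. Their median level was 7.02, against 8.81 for the 5 genes of the list. Some, among them Gys2 (3.08), Phkg1 (3.06) and Pygm (4.24), lay below the array medians and cannot be told from background. Gys1, the glycogen synthase of muscle and other tissues outside the liver, stood at 7.94 and 7.89 on the log2 scale in the social threat pools, against 6.66 and 6.52 in the control pools. Its rise of 1.33 (SE 0.09, limma adjusted p = 1.28e-05) was 2.51-fold, and 203 of the 18193 genes had a larger rise. A further probe set of Gys1 gave 1.44. Gbe1, the enzyme that puts the branches into glycogen, stood at 7.89 and 7.84 under social threat, against 6.86 and 6.73 in controls. This was a rise of 1.07 (SE 0.09, limma adjusted p = 4.19e-05), or 2.10-fold. For both genes the gap between the groups was several times the distance between the pools of either group.

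Pygl, the liver-type glycogen phosphorylase that releases glucose units from the store, reached 12.30 and 12.31 under social threat, against 11.53 and 11.54 in controls. Its log2 difference of 0.77 (SE 0.03) had the smallest adjusted p of the 34 genes, 3.92e-07 in limma. Ugp2 makes UDP-glucose, the building block of glycogen, and stood at 10.57 and 10.66 under social threat, against 10.11 and 10.26 in controls. It rose by 0.43 (SE 0.06, limma adjusted p = 0.000954), and of its 5 probe sets 3 were called and all 5 were higher, by 0.23 to 0.43. Genes for making the polymer and for breaking it down thus stood higher in the same pools.

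Pgm2 belongs to the phosphoglucomutase family, and its human counterpart acts mainly on pentose phosphates. It stood at 9.13 and 9.16 under social threat, against 8.50 and 8.47 in controls, a rise of 0.66 (SE 0.06, limma adjusted p = 9.73e-05). Pgm1, which links glucose 1-phosphate to glucose 6-phosphate and is no member of the list, rose by 0.32 (SE 0.09, limma adjusted p = 0.0401). Of its 2 probe sets, 1 was called.

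The bases before the start of these 5 genes, the glycogen group of the list, are shown because all 5 were called higher. The motif marked is that of HIF-1, a well-known control element of glycolytic genes. A shared control of the 5 genes was not tested. Each window holds the 250 bases before the start in RefSeq, build GRCm38.p6, written along the gene. Capitals mark the letters ACGTG or GCGTG, or those motifs read on the other strand (CACGT and CACGC). Overlapping matches share letters.
Gys1 (chr7:45434589-45434838, plus strand): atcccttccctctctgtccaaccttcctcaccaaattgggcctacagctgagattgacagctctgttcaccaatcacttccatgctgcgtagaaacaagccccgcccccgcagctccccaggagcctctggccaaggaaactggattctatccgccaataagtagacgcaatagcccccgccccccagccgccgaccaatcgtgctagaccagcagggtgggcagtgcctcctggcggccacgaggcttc
Gbe1 (chr16:70313699-70313948, plus strand): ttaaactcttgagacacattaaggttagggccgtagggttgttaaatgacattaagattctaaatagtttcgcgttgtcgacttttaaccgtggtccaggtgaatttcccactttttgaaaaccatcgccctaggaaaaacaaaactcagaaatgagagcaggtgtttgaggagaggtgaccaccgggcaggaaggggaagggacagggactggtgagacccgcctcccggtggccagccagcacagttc
Pygl (chr12:70227684-70227933, minus strand): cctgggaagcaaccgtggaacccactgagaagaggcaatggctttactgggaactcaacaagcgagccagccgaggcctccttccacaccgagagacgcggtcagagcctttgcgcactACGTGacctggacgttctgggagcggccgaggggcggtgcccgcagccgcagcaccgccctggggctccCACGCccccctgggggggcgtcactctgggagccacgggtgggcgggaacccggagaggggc
Ugp2 (chr11:21371268-21371517, minus strand): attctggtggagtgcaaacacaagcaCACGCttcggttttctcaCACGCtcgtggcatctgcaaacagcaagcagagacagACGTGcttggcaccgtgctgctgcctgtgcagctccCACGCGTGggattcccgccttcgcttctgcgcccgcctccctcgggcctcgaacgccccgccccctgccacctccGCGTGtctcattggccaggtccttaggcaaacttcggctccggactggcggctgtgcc
Pgm2 (chr5:64092689-64092938, plus strand): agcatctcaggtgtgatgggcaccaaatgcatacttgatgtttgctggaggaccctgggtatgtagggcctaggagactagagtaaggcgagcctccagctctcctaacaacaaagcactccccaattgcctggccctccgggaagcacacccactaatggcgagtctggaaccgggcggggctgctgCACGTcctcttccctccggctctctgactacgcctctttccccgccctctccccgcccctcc
The windows of Gys1 and Gbe1 held 0 matches, that of Pygl held 2, that of Ugp2 held 6 and that of Pgm2 held 1.

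Over the whole list, 37 of the 38 symbols matched a RefSeq promoter, and the first listed start was taken where a gene had several. A motif lay in 29 of the 37 windows, against 38.6% of 32841 windows of the same length in the table. Both motifs hold a CG pair, and the median number of CG pairs per window was 14 for the listed genes and 6 for all windows. By call, 10 of 17 windows of genes that rose, both windows of genes that fell and 14 of 14 windows of genes that were not called held a motif. A match of this kind is a run of letters and not a site shown to be bound.

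**Figure D2:**
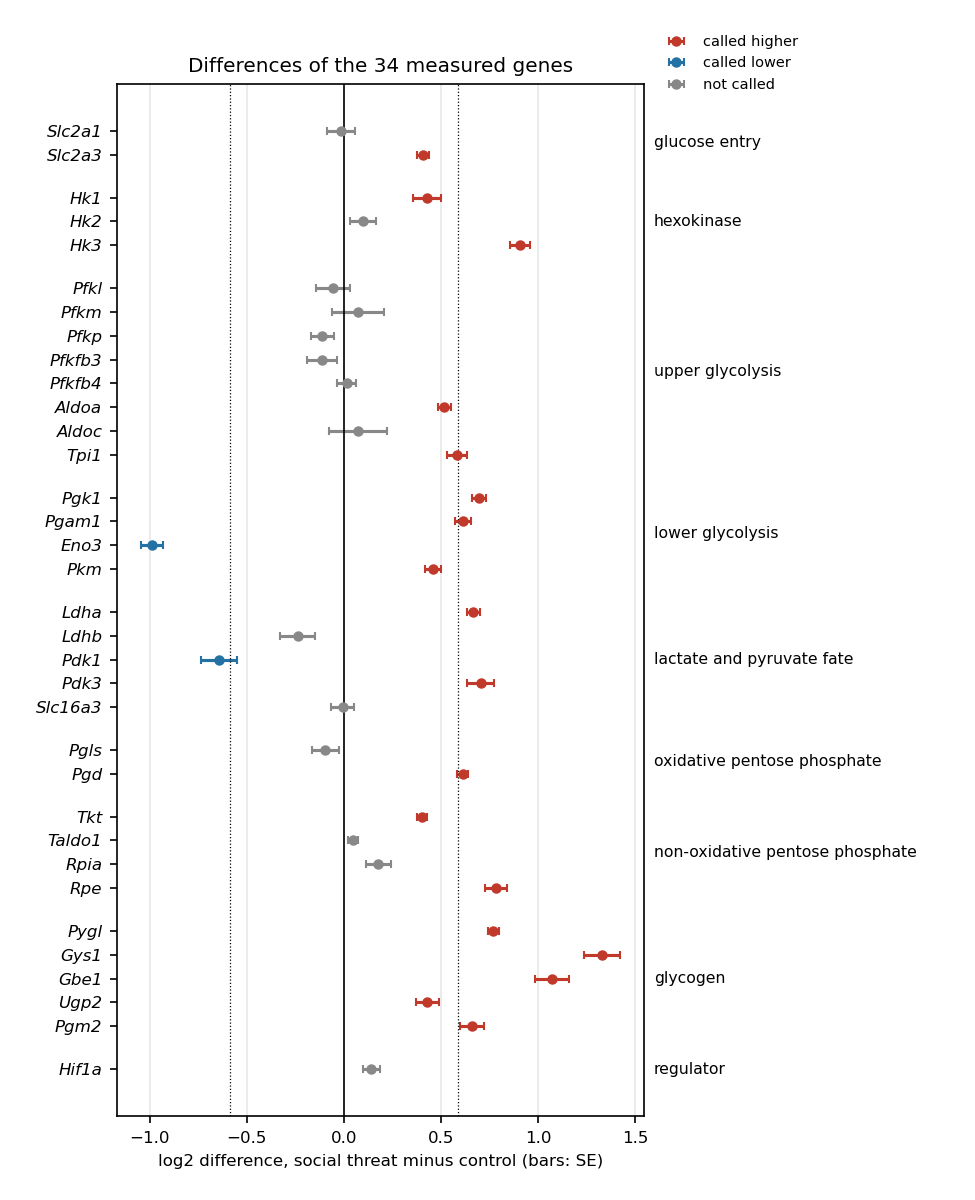
Log2 difference, social threat minus control, of each measured gene (x axis, bars: SE from limma), grouped by role, with called genes in red (higher) or blue (lower) and genes not called in grey. Dotted lines mark 1.5-fold. Gys1 lies farthest to the right at 1.33 and Eno3 farthest to the left at -0.99.

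At the point of entry, the 2 glucose transporters gave different readings. Slc2a3, which encodes the high-affinity transporter GLUT3, stood at 11.92 and 11.90 under social threat, against 11.49 and 11.51 in controls. It rose by 0.41 (SE 0.03, limma adjusted p = 2.5e-05), and all 4 of its probe sets were called higher, by 0.41 to 0.62. Slc2a1, which encodes the widespread transporter GLUT1, had overlapping pools at 9.83 and 9.99 under social threat, against 10.01 and 9.85 in controls. Its log2 difference was -0.02 (SE 0.07), and 0 of its 3 probe sets were called. Whether the changes of 2 such genes differ from each other was not tested, here or for the isozymes below.

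Hexokinases trap glucose in the cell by adding a phosphate. Hk3, an isozyme found mainly in blood cells, stood at 10.27 and 10.27 under social threat, against 9.40 and 9.33 in controls. It rose 1.87-fold, by 0.91 on the log2 scale (SE 0.05, limma adjusted p = 3.86e-06), and its other probe set rose by 0.78. Hk1, the widespread isozyme, stood at 8.94 in both social threat pools, against 8.59 and 8.43 in controls. It rose by 0.43 (SE 0.07, limma adjusted p = 0.00322), but the call was lost without social threat pool 1 (limma adjusted p = 0.0667) and without social threat pool 2 (0.0665). Hk2, an isozyme that HIF-1 and insulin are known to induce, gave 9.21 and 9.10 under social threat, against 9.02 and 9.09 in controls, and was not called (log2 difference 0.10, SE 0.07, limma adjusted p = 0.411).

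The committed step of glycolysis is the phosphorylation of fructose 6-phosphate. The 5 measured genes for its enzyme and for the control of that enzyme's activator had 0 calls. The phosphofructokinase subunit genes Pfkl, Pfkm and Pfkp differed by -0.06 (SE 0.09), 0.07 (SE 0.13) and -0.11 (SE 0.06) on the log2 scale. Pfkp stood at 9.14 and 9.17 under social threat, against 9.24 and 9.30 in controls, so its pools did not overlap, yet its limma adjusted p was 0.285. Pfkm, the muscle subunit, gave 6.11 and 5.85 under social threat, against 5.79 and 6.03 in controls. Pfkfb3 and Pfkfb4 encode bifunctional enzymes that set the level of fructose 2,6-bisphosphate, the activator of that step. Pfkfb3 differed by -0.11 (SE 0.08) and Pfkfb4 by 0.01 (SE 0.05), with pools at 9.90 and 9.90 under social threat and at 9.87 and 9.91 in controls. Of the 10 probe sets of these 5 genes 0 were called. Over all probe sets on the array 15.8% were called, and 10 probe sets are too few to set apart from that share.

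Of the 3 measured genes for the next steps, aldolase and triose phosphate isomerase, 2 rose. Aldoa, the main aldolase outside liver and brain, stood at 11.84 and 11.90 under social threat, against 11.34 and 11.37 in controls, a rise of 0.52 (SE 0.03, limma adjusted p = 1.07e-05). All 5 of its probe sets were called, with rises of 0.26 to 0.57. Aldoc, the brain-type aldolase, had widely spread control pools at 5.97 and 5.54, around its social threat pools at 5.86 and 5.79, and was not called. Tpi1, triose phosphate isomerase, rose by 0.58 (SE 0.05, limma adjusted p = 6.37e-05), with 10.35 and 10.32 under social threat, against 9.80 and 9.71 in controls. Its 3 probe sets agree within 0.56 to 0.61.

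In lower glycolysis 3 of the 4 measured genes rose and 1 fell. Pgk1, phosphoglycerate kinase, which makes the first ATP of the pathway, stood at 12.22 and 12.18 under social threat, against 11.46 and 11.54 in controls. It rose 1.62-fold, by 0.69 (SE 0.04, limma adjusted p = 2.47e-06), and by 0.60 to 0.83 over its 3 probe sets. Pgam1, phosphoglycerate mutase, gave 11.05 and 11.04 under social threat, against 10.46 and 10.40 in controls, and rose by 0.61 (SE 0.04, limma adjusted p = 1.16e-05). Pkm, pyruvate kinase, rose by 0.46 (SE 0.04, limma adjusted p = 5.91e-05), with 12.31 and 12.30 under social threat, against 11.79 and 11.91 in controls. The control pools of Pkm were the more widely spaced pair, and the gap to the social threat pools was larger than the distance between them.

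Eno3, the muscle-type enolase, went the other way. It stood at 8.70 and 8.69 under social threat, against 9.68 and 9.68 in controls, and fell by 0.99 on the log2 scale (SE 0.06, limma adjusted p = 4.17e-06), a 1.98-fold difference. In both groups the distance between the pools was far smaller than the gap between the groups. The gene has 1 probe set, and its widespread isozyme Eno1 is among the genes not analysed here.

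Pyruvate can become lactate or enter the mitochondria. Ldha, the lactate dehydrogenase subunit that favours lactate, stood at 11.66 in both social threat pools, against 11.01 and 11.00 in controls, and rose 1.59-fold, by 0.66 (SE 0.03, limma adjusted p = 1.92e-06). Ldhb, the subunit of the heart-type enzyme, gave 6.89 and 6.94 under social threat, against 7.15 and 7.16 in controls. It was not called (log2 difference -0.24, SE 0.09, limma adjusted p = 0.119), although all 4 of its probe sets were lower. Slc16a3, which encodes the lactate exporter MCT4, had overlapping pools and a log2 difference of -0.01 (SE 0.06).

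Of the genes for pyruvate dehydrogenase kinases, which shut the mitochondrial entry of pyruvate, 1 rose and 1 fell. Pdk2 (log2 difference -0.25) and Pdk4 (0.08), which are outside the list, were not called. Their mean levels, 4.58 for Pdk2 and 3.07 for Pdk4, lay near or below the array medians and cannot be told from background. Pdk3 stood at 9.04 and 8.95 under social threat, against 8.28 and 8.30 in controls, and rose 1.63-fold, by 0.70 (SE 0.07, limma adjusted p = 0.000107). Pdk1, a known HIF-1 target, stood at 6.57 and 6.49 under social threat, against 7.18 and 7.17 in controls. It fell by 0.64 (SE 0.09, limma adjusted p = 0.00129), a 1.56-fold difference. Of its 4 probe sets 3 fell, by 0.51 to 0.64, and the other lay below the array medians at 2.91 and 2.86 under social threat and at 2.91 and 2.83 in controls. As the mean of all 4 probe sets Pdk1 fell by 0.42.

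**Figure D3:**
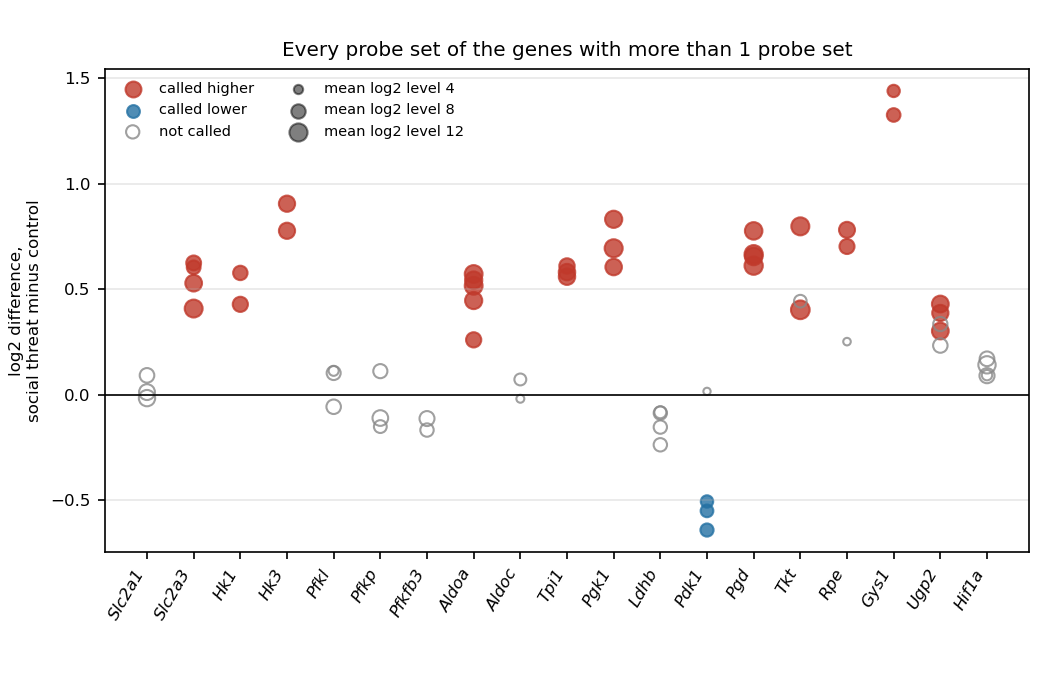
Log2 difference, social threat minus control (y axis), of every probe set of the 19 measured genes that have more than 1 (x axis), with filled points for called probe sets and open points for the others. The point size follows the mean log2 level. No gene has probe sets called in both directions, and the uncalled probe sets of Pdk1 and Rpe are the small, dim ones.

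In the oxidative arm of the pentose phosphate pathway, Pgd, the 6-phosphogluconate dehydrogenase that makes NADPH, stood at 12.47 and 12.44 under social threat, against 11.84 and 11.84 in controls. It rose 1.53-fold, by 0.61 (SE 0.03, limma adjusted p = 1.05e-06), and its 4 probe sets rose by 0.61 to 0.78. Pgls, the lactonase of the step before, overlapped between groups at 9.18 and 9.13 under social threat and at 9.33 and 9.17 in controls.

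The non-oxidative arm interconverts sugar phosphates and makes ribose. Rpe, the ribulose-phosphate epimerase, stood at 9.95 and 9.97 under social threat, against 9.12 and 9.23 in controls, and rose 1.72-fold, by 0.78 (SE 0.06, limma adjusted p = 1.97e-05). A second probe set rose by 0.70, and the remaining one, at 3.25 and 3.03 under social threat and 2.92 and 2.86 in controls, was not called. Tkt, transketolase, gave 12.83 and 12.87 under social threat, against 12.44 and 12.45 in controls, and rose by 0.40 (SE 0.03, limma adjusted p = 8.51e-06). Another of its 3 probe sets rose by 0.80, and the remaining one was not called. Taldo1, transaldolase, differed by 0.05 (SE 0.03) at 12.65 and 12.66 under social threat and 12.59 and 12.63 in controls. Rpia, the ribose-phosphate isomerase, differed by 0.17 (SE 0.06, limma adjusted p = 0.112). Neither of these was called.

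Hif1a itself lay at the edge of the threshold. It stood at 11.03 and 11.11 under social threat, against 10.93 and 10.93 in controls, a log2 difference of 0.14 (SE 0.04) with a limma adjusted p of 0.050006. Its other 3 probe sets differed by 0.09 to 0.17 and were not called. Of 11 genes for HIF-1 partners, oxygen sensors and related glucose-sensing factors, 1 rose and 1 fell. Egln3, an oxygen-sensing prolyl hydroxylase that HIF-1 induces, rose by 0.55 (SE 0.11, limma adjusted p = 0.00692). Of its 2 probe sets 1 was called, and the other gave 0.17. Myc, a growth factor-driven transcription factor that also acts on glycolytic genes, fell by 0.58 (SE 0.08, limma adjusted p = 0.0011).

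A list of HIF-1 targets kept largely outside glucose metabolism had a median log2 difference of -0.16, with 2 rises and 3 falls among 15 measured genes. It also holds Pfkfb2 and Egln3, which stand in other lists. Ddit4, an inhibitor of the mTOR pathway that glucocorticoids induce as well, fell by 1.21 (SE 0.22, limma adjusted p = 0.00465), with 6.26 and 6.93 under social threat, against 7.53 and 8.09 in controls. P4ha1, a collagen prolyl hydroxylase, fell by 0.54 (SE 0.09) and Kdm3a, a histone demethylase, by 0.38 (SE 0.06). Mxi1, an antagonist of Myc, is named because its values stood out, and it rose by 0.32 (SE 0.05).

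Of 82 other measured genes of glucose metabolism, 13 rose, 6 fell and 63 were not called, with a median log2 difference of 0.00. That is 19 calls, beside the 21.1% of all genes. The median level of the 82 genes was 6.34, against 9.51 for the 34 genes. Calls depend on level, since 37.6% of the genes above the median level were called. Of the 19, 3 differed by at least 1.5-fold, and leaving out social threat pool 1 or social threat pool 2 left 6 calls in either case. Adpgk, a glucokinase that uses ADP in place of ATP, was the largest rise among them, with 9.60 and 9.48 under social threat, against 7.52 and 7.35 in controls. Its rise of 2.10 (SE 0.08, limma adjusted p = 4.17e-07) was 4.30-fold, both of its probe sets were called, and 55 of the 18193 genes had a larger rise. Tigar, which lowers fructose 2,6-bisphosphate, rose by 0.52 (SE 0.11, limma adjusted p = 0.00981), with 1 of 3 probe sets called.

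Among 22 other glycogen genes, the list that also holds Pgm1, 3 rose and 3 fell. Gyg, glycogenin, the protein primer on which glycogen is started, stood at 11.90 and 11.88 under social threat, against 10.92 and 11.02 in controls, a rise of 0.93 (SE 0.04, limma adjusted p = 7.64e-07). Its other probe set rose by 0.98. Phka1, a regulatory subunit of phosphorylase kinase, fell by 0.47 (SE 0.12) and Pgm2l1, a glucose 1,6-bisphosphate synthase, by 0.43 (SE 0.11). Beside these and Pgm1, the genes called, named after their values were seen, were Ppp1r3b, which targets a phosphatase to glycogen, with a rise of 0.30, and Gaa, the lysosomal glycogen hydrolase, with a fall of 0.30.

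Of 12 genes for pyruvate import and pyruvate dehydrogenase 3 rose and 0 fell. Dld rose by 0.38 (SE 0.08), with 1 of 2 probe sets called, and the carrier gene Mpc1 by 0.22 (SE 0.04). Dlat rose by 0.32 (SE 0.09), with 2 of 3 probe sets called and the lowest at -0.12. Got1, the cytosolic aspartate aminotransferase, stood at 9.19 and 9.11 under social threat, against 9.91 and 9.82 in controls, and fell by 0.72 (SE 0.06, limma adjusted p = 4.42e-05). Its mitochondrial partner Got2 rose by 0.32 (SE 0.04, limma adjusted p = 0.000867), with 2 of 4 probe sets called. Fbp1, the fructose bisphosphatase of gluconeogenesis, was called higher by 0.41, at levels between 3.07 and 3.70 that lay below the array medians. The malic enzyme gene Me2 was called higher by 0.32. Only 2 of the 4 probe sets of Me2 were called, and the 4 ranged from -0.36 to 0.37. Among 7 other pentose phosphate genes, Prps2, which turns ribose phosphate into the nucleotide precursor PRPP, was the 1 gene called and fell by 0.50 (SE 0.07). Of the 3 probe sets of Prps2, 1 was called, and the 3 ranged from -0.50 to -0.11. Among 12 other transporter genes, Slc2a9 rose by 0.58 (SE 0.14) and Slc2a6 fell by 0.26 (SE 0.06). Of the 2 probe sets of Slc2a9, 1 was called and the other gave -0.03. The control mean of Slc2a9 was 4.69, near the array medians.

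**Figure D4:**
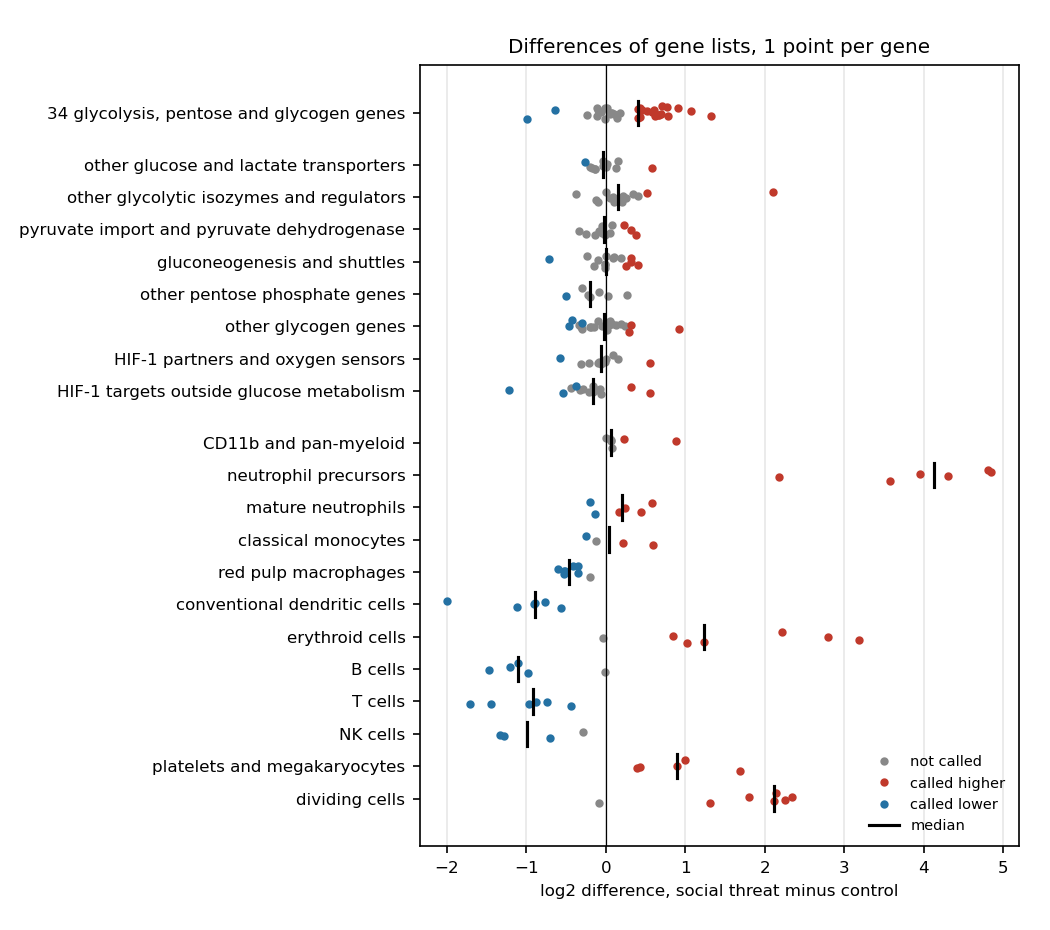
Log2 difference, social threat minus control (x axis), of each measured gene of the lists (y axis), with the 34 glycolysis, pentose phosphate and glycogen genes at the top, other lists of glucose metabolism and HIF-1 below them and cell type markers at the bottom. Red points were called higher, blue ones lower and grey ones not, and black lines mark medians. The median of the 34 genes is 0.40, that of the neutrophil precursor markers 4.13 and that of the B cell markers -1.11.

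Markers of several cell types moved in the same arrays. Neutrophil precursor markers, among them Mpo and Elane, were called higher for 6 of 6 measured genes, with mean log2 levels of 10.43 to 10.51 under social threat and 6.45 to 6.60 in controls. Markers of dividing cells, among them Mki67 and Rrm2, were called higher for 6 of 7 (10.01 to 10.03 under social threat, 8.25 to 8.40 in controls), those of erythroid cells for 6 of 7 (6.61 to 6.65 under social threat, 5.02 to 5.03 in controls) and those of platelets for 5 of 5 (7.23 to 7.27 under social threat, 6.31 to 6.43 in controls). Mature neutrophil markers were called higher for 4 and lower for 2 of 6, with mean levels of 12.63 to 12.65 under social threat and 12.44 to 12.48 in controls. Of 4 classical monocyte markers 2 were called higher and 1 lower. Markers of conventional dendritic cells were called lower for 6 of 6 (6.96 to 7.02 under social threat, 8.02 to 8.04 in controls) and those of B cells for 4 of 5 (7.41 to 7.44 under social threat, 8.37 to 8.41 in controls). The same was read for 6 of 6 T cell markers (6.18 to 6.22 under social threat, 7.19 to 7.27 in controls), 3 of 4 NK cell markers (median log2 difference -0.99) and 7 of 8 red pulp macrophage markers (9.69 to 9.70 under social threat, 10.12 to 10.15 in controls). RMA levels have no true zero, so none of these markers can be called absent. Itgam, the gene of CD11b, rose by 0.88 (SE 0.13), and Itgb2, which encodes its partner chain, rose by 0.22 (SE 0.03). The 5 other pan-myeloid genes measured (Spi1, Fcer1g, Tyrobp, Lyz2 and Ptprc) were not called, at levels above 11 in every pool. The part of these cell types in the changes of the glucose genes was not tested.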

How the data were processed

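The authors deposited log2 expression values per probe set for 4 arrays, and the submitters' processing notes name RMA, without a version. RMA corrects background, brings arrays to 1 distribution and summarises probes, and it compresses differences of dim probe sets. The values ran from 2.26 to 14.25, with array medians between 4.41 and 4.43, and no detection calls were available, so levels near those medians cannot be told from background. Depth does not apply, and the number of arrays limits the precision.

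Of 45037 probe sets, 34945 had 1 gene symbol in the platform annotation, 932 several and 9160 none. Entrez identifiers of 34741 matched RefSeq genes and changed 0 symbols. All probe sets were fitted in R 4.3.3 with limma 3.58.1 (lmFit, eBayes with a mean-variance trend, two-sided, no covariate, 2 residual and 7.1 prior degrees of freedom), and the code was tested on simulated data. SEs are limma's moderated ones. The labels name no batch, so array processing and social threat cannot be told apart. The pools share the numbers 1 and 2, but pool differences correlated at only 0.05 between groups, so they were not treated as pairs. Pearson's r was 0.998 between social threat pools, 0.997 between control pools and at most 0.990 between groups.

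The genes and lists were chosen with earlier results of these data known. All listed genes are named, with up to 4 of each other pathway list (called genes first, then by size), apart from exceptions stated in the text. Pdk2 and Pdk4 are named beside the kinase genes of the list. For neutrophil precursors and dividing cells the first 2 measured markers are named. All measured pan-myeloid genes are named, and the other cell type lists are given by counts or levels only. The 11 alternatives changed the trend, block, pools, filter, centring, probe set rule and adjustment.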

Additional observations from a re-analysis of the deposited data

How the results depend on the processing

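Of the 20 called genes, 19 kept their direction and their call under every alternative that refitted them. The exception was Hk1, which lost its call when social threat pool 1 or social threat pool 2 was left out. Over the alternatives that leave out 1 pool each, the calls among the 34 genes numbered 19 to 21, with 17 to 19 higher and 2 lower, 12 to 14 were called at 1.5-fold or more, those among the 82 other glucose genes numbered 6 to 21 and those over all probe sets 3171 to 8721. Without the mean-variance trend 8 of the other glucose genes and 4689 probe sets were called, against 19 and 7099 as reported, and 20 of the 34 genes. Counting a gene only where all of its probe sets were called 1 way left 16 of the 34 genes, with 15 higher and 1 lower (Eno3), and 8 of the other glucose genes. With the pool number as a replicate block 21 of the 34 genes and 8168 probe sets were called, and it ended no call of the 34. Hif1a was called with that block (limma adjusted p = 0.0366) and with only probe sets above the median level (0.0338). The same held with array medians subtracted (0.0479) and with adjustment over 1 probe set per gene (0.0374). Hif1a was not called under the other alternatives. Its limma adjusted p was 0.353 without the mean-variance trend and 0.229 when each gene's probe sets were averaged. With 1 pool left out, its log2 difference ran from 0.10 to 0.18. Rpia was called only without control pool 1, where its log2 difference was 0.23, against 0.12 without control pool 2. Dim probe sets limit what can be read of Pfkm and Aldoc, and the number of pools limits every p-value.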
